A study of Mus musculus with 17 samples.

Results

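A set of 9 genes of the B lineage were followed in cultured mouse plasmacytoid dendritic cells (pDC): Cd79a, Cd79b, Blnk, Blk, Ms4a1, Fcer2a, Cd24a, Pax5 and Ebf1. They were taken by name, and each is read by 1 probe set annotated to that symbol alone, so they are 9 of the 19751 genes that have a probe set with exactly 1 gene symbol (21354 such probe sets, of 24680 in all). The pDC were isolated from C57BL/6 bone marrow by magnetic removal of other cells and were then sorted by flow cytometry for intermediate CD11c, for B220 and for Siglec-H. They were cultured with CpG-A (the oligonucleotide 2216, 3 arrays), CpG-A + LIF (3 arrays), CpG-B (the oligonucleotide 1826, 3 arrays), CpG-B + LIF (3 arrays), LIF (3 arrays) or medium alone (2 arrays, replicates 1 and 3). LIF, leukaemia inhibitory factor, is an IL-6 family cytokine whose receptor activates STAT3. It was used at 10 ng/ml for 20 to 24 h, starting 1 h before CpG where both were given. CpG oligonucleotides trigger the DNA sensor TLR9 and were used at 6 µg/ml for 19 to 23 h, per the treatment protocol. The design text of the series gives a wider range of hours for CpG. Total RNA was read on single-channel Affymetrix arrays. The labels do not say whether replicates came from separate mice, so the p-values measure only the spread between these arrays, which may be technical.

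Cd79a and Cd79b encode the signalling chains that B cells use to carry the antigen receptor signal into the cell. Blk is a Src-family kinase and Blnk an adaptor of the same pathway, Ms4a1 encodes CD20, Fcer2a encodes the low-affinity IgE receptor CD23, and Cd24a encodes a small glycoprotein of immature and resting lymphocytes. Ebf1 and Pax5 are the transcription factors that specify and then commit cells to the B lineage. pDC carry B220 and share parts of this programme, Blnk and Blk among them, although they are dendritic cells and make no antigen receptor. E-proteins such as Tcf4, which bind the E-box, are needed for pDC identity and also act in B cell development.

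The promoters of 4 of the genes are shown because E-box, octamer and PU.1 sites are the classes of site through which E-proteins, Oct factors and PU.1 act on B-lineage genes, and because these genes gave called differences below. Windows were found for 5 of the 9 genes in RefSeq sequence (GRCm38.p6), each covering 250 bases before and 50 bases from the transcription start. The 5 genes have 8 windows, and those at the start of each gene are described. They lie at chr7:24897247-24897546 (+ strand, Cd79a), chr19:40994172-40994471 (- strand, Blnk), chr8:3694125-3694424 (- strand, Fcer2a), chr4:44710645-44710944 (- strand, Pax5) and chr11:44617850-44618149 (+ strand, Ebf1). Capitals mark matches, on either strand, to the E-box CANNTG, the octamer ATGCAAAT or the PU.1 core GAGGAA.
Cd79a: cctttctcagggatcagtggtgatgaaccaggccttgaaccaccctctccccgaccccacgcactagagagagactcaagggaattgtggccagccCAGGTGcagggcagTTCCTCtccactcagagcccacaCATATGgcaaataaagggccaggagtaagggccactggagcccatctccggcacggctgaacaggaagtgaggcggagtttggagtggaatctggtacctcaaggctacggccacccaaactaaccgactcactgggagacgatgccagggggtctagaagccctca
Blnk: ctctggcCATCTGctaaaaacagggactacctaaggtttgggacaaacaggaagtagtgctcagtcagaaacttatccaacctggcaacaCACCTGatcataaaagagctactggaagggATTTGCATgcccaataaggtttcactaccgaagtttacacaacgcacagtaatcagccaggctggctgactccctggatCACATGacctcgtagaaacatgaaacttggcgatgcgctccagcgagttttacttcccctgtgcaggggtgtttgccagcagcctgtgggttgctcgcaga
Fcer2a: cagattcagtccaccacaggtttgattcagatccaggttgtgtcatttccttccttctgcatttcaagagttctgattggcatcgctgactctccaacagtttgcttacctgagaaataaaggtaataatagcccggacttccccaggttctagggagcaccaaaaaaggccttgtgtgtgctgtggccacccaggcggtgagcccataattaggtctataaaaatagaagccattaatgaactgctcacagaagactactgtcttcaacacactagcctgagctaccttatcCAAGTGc
Pax5: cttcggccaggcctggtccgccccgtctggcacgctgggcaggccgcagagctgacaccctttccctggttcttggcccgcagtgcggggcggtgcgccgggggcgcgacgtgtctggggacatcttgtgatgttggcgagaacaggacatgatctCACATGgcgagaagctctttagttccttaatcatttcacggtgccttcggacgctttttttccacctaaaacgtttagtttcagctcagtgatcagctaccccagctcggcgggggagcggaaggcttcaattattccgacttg
The Blnk window held 3 E-boxes and an octamer at bases -130 to -123, counted from 0 at the first transcribed base. The Cd79a window held 2 E-boxes and a PU.1 core at bases -140 to -135, which appears above as its reverse complement. The Fcer2a and Pax5 windows held 1 E-box each, and the Ebf1 window at the gene start held none of these motifs. A further Ebf1 window, at chr11:44619978-44620277, held 2 E-boxes and a PU.1 core, and the other two Fcer2a windows held 4 E-boxes and 1 E-box. Among all 32851 promoter windows, 72.3% held an E-box, 28.3% a PU.1 core and 1.74% an octamer. The EBF site, searched as TCCC and GGGA with any 2 bases between (0.904% of windows), and the STAT site TTCNNNGAA (8.3% of windows) had no match in any of the 8 windows, and no matches overlapped. Only exact matches to these letters were searched, so a window without a match can still hold a site that departs from them. The letters are given as a description and were not tested against the expression values.

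**Figure D1:**
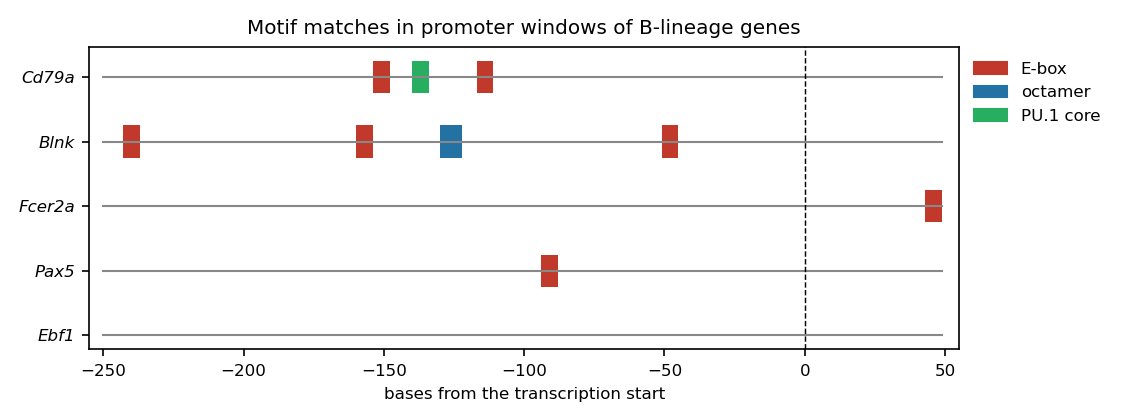
Positions of E-box, octamer and PU.1 core matches in the RefSeq promoter window at the gene start of 5 B-lineage genes, as bases from the transcription start (dashed line). Blnk holds 3 E-boxes and the octamer, Cd79a holds 2 E-boxes and the PU.1 core, and Ebf1 holds no match in this window.

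The deposited values are digits of linear intensities that lost their decimal mark, so each log2 value is known only up to multiples of log2(10), which is 3.32. A difference between groups is therefore given as its nearest reading, the value of smallest size between -1.66 and 1.66, with its SE. A probe set was called at an adjusted p under 0.05 (limma, Benjamini-Hochberg adjustment over all 21354 probe sets), and was said to read higher or lower only where the called reading was at most 1.11 in size. For larger called readings both possible readings are given and the direction is left undecided. A reading within the limit has another possible reading too, of the opposite sign and at least 4.64-fold in size. Lower and higher therefore assume that the true change was not that large. The limit was applied to each comparison alone, so readings within it can add up to a reading left undecided. Array values of a gene are given in arbitrary units, with each decimal mark placed so that the 6 groups lie as close together as they can. Those units have no meaning across genes, and absolute levels cannot be had, so it cannot be seen whether a gene was near background. RNA of whole sorted cultures was measured, so fewer cells of a type and less RNA per cell cannot be told apart.

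With CpG-A, 5 of the 9 genes were called against medium, where 16.8% of all probe sets were called: Cd79a and Fcer2a read lower, and Cd79b, Blk and Cd24a differed with an undecided direction. With CpG-B, 5 genes were called against medium, where 18.7% of all probe sets were called: Blnk and Cd24a read lower, and Blk, Fcer2a and Pax5 differed with an undecided direction. No gene of the 9 read higher with either CpG. Over all probe sets, 7.23% read lower, 4.87% read higher and 4.72% had an undecided direction with CpG-A, and 6.70%, 6.74% and 5.31% did so in that order with CpG-B. The median nearest reading of the 9 genes was -0.74 with CpG-A and -0.52 with CpG-B, beside -0.02 and -0.05 over all probe sets. These medians take each nearest reading with its sign, also where the direction is undecided, so they do not settle a direction. Both comparisons share the 2 medium arrays. Without either medium array, CpG-B called 3 of the 9 genes, and with CpG-A the count was 4 wherever leaving out an array cost Cd79a its call. Over all probe sets, 2305 and 2349 were called with CpG-A without medium replicate 1 and 3, in place of 3591, and 2595 were called with CpG-B without medium replicate 3, in place of 4002.

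**Figure D2:**
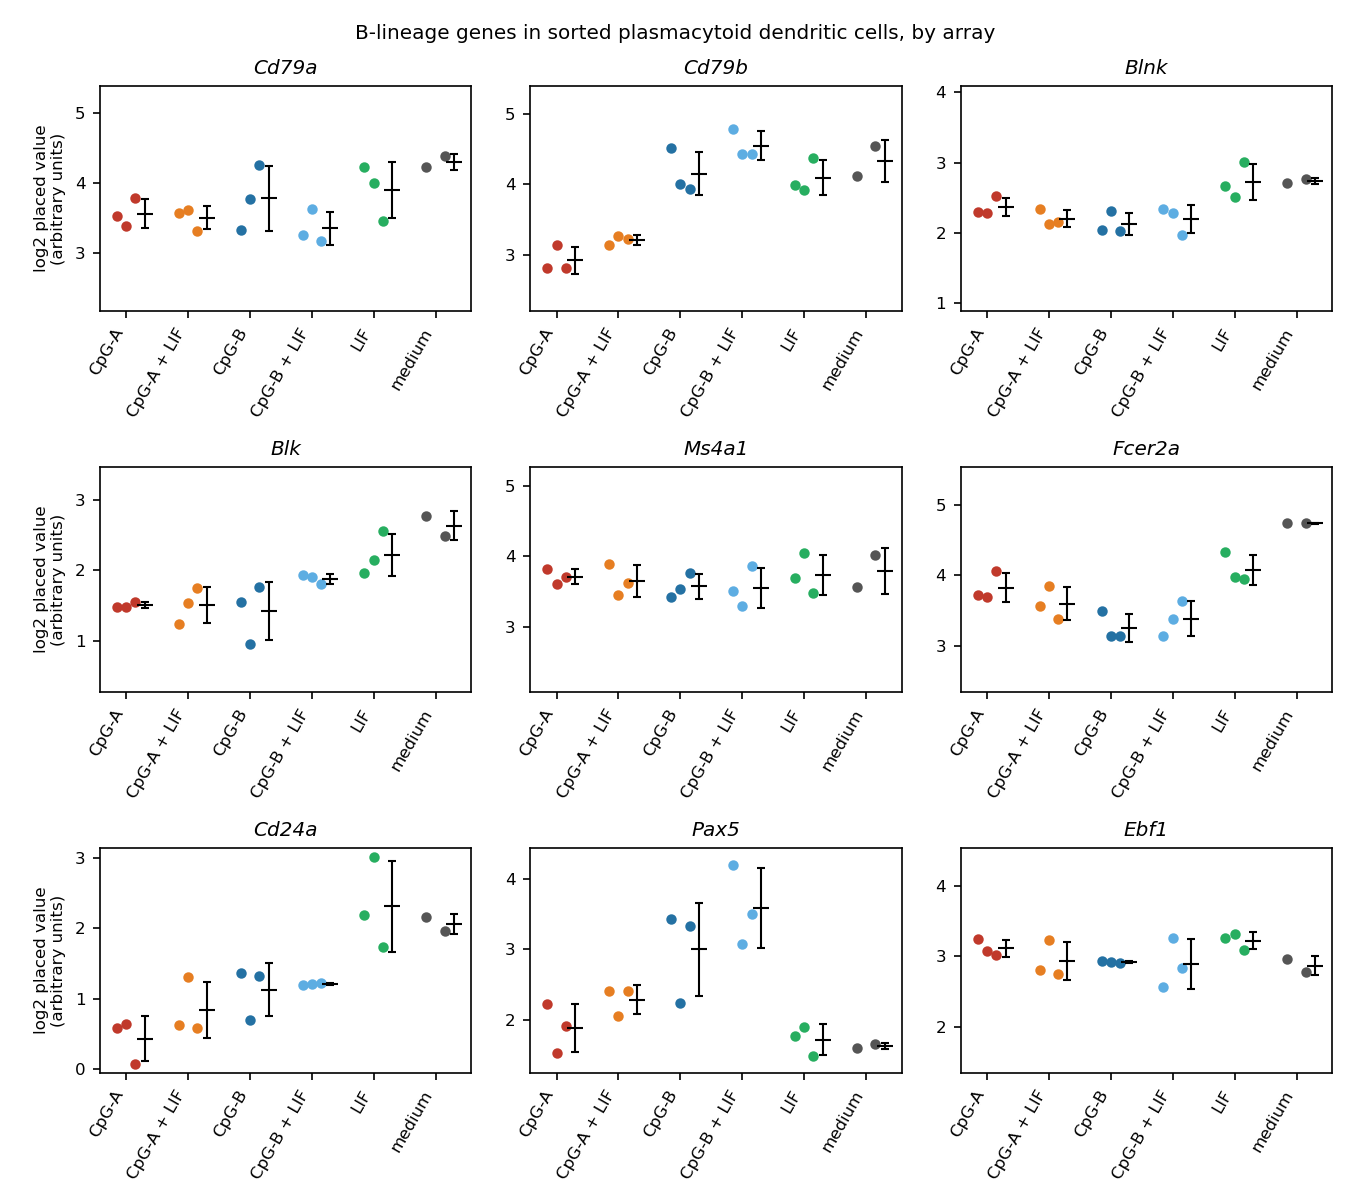
Log2 of the placed value (arbitrary units, own scale per gene) of each array for 9 B-lineage genes in the 6 culture groups, with the group mean and SD as black bars (n = 3, medium n = 2). As placed, Cd79b is low in the CpG-A and CpG-A + LIF arrays and Pax5 is high in the CpG-B + LIF arrays. Ms4a1 overlaps between all groups.

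Of the receptor chains, Cd79b differed most clearly with CpG-A. Its placed values were 6.99, 8.82 and 7.04 with CpG-A, against 17.4 and 23.3 in medium. With CpG-A + LIF they were 8.79, 9.61 and 9.37, against 15.97, 15.1 and 20.8 with LIF. As placed, each array of the CpG-A groups lay below each array without CpG-A. The nearest reading for CpG-A against medium was -1.41 ± 0.20 (or 1.91, adjusted p = 6.74e-05, limma), which leaves the direction undecided. In the presence of LIF it was -0.88 ± 0.17 (adjusted p = 0.00141, limma), a lower reading within the limit. With CpG-B the values were 22.8, 16.1 and 15.4, which overlapped those in medium, and with CpG-B + LIF they were 27.7, 21.6 and 21.6. Neither CpG-B comparison was called: the reading was -0.19 ± 0.20 against medium (adjusted p = 0.604, limma) and 0.46 ± 0.17 for CpG-B + LIF against LIF (adjusted p = 0.0668, limma). The last became a call without CpG-B replicate 1 (0.46, adjusted p = 0.0425, limma) or without LIF replicate 3 (0.59, adjusted p = 0.0287, limma).

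Cd79a, the partner chain, moved less and not with the same arrays. Its placed values were 11.6, 10.4 and 13.7 with CpG-A, against 18.7 and 20.8 in medium, without overlap. The reading was -0.74 ± 0.24 (adjusted p = 0.0455, limma). This call was narrow: it was lost without either medium array (-0.82 and -0.66, adjusted p = 0.124 and 0.234), without CpG-A replicate 1 or 2 (-0.72 and -0.65, adjusted p = 0.1003 and 0.135), and without CpG-A + LIF replicate 1 or 2, CpG-B replicate 2 or CpG-B + LIF replicate 1, where the reading was -0.74 and the adjusted p ran between 0.0520 and 0.0550 (limma). It was also lost when all probe sets of the table were fitted (adjusted p = 0.0508, limma) and with the replicate number as a block (-0.77, adjusted p = 0.0535, limma). With CpG-B the arrays were spread over 10.0, 13.7 and 19.0 and reached into the range of medium (-0.52 ± 0.24, adjusted p = 0.165, limma). Without CpG-B replicate 3, the highest of them, that reading was -0.75 (adjusted p = 0.0378, limma). With CpG-A + LIF the values were 11.9, 12.3 and 10.0, with CpG-B + LIF 9.57, 12.4 and 9.06, and with LIF 18.8, 15.97 and 11.0. LIF replicate 3 lay within the CpG range, and no comparison against LIF was called (-0.40 ± 0.22 for CpG-A + LIF and -0.55 ± 0.22 for CpG-B + LIF, adjusted p = 0.267 and 0.0732, limma). The comparison of CpG-B + LIF with LIF was called without LIF replicate 3 (-0.76, adjusted p = 0.0176), without CpG-B replicate 1 or 3 (-0.55, adjusted p = 0.0451 and 0.0441) and without CpG-B + LIF replicate 2 (-0.69, adjusted p = 0.04999). Over the 17 arrays the placed values of Cd79a and Cd79b had a Pearson r of 0.08, given as a description, since the arrays share groups.

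Blnk, the adaptor that links the kinase Syk to phospholipase C, had the smallest spread within groups (SD 0.17 on the log2 scale). Its placed values were 4.12, 4.97 and 4.09 with CpG-B, against 6.555 and 6.84 in medium. The reading was -0.61 ± 0.16 (adjusted p = 0.0115, limma), and no CpG-B array reached those in medium. This call was lost without medium replicate 1 (-0.65, adjusted p = 0.0558, limma) or without medium replicate 3 (-0.58, adjusted p = 0.0883, limma). With CpG-A the values were 4.92, 4.90 and 5.76, also all below medium, at a reading of -0.37 ± 0.16 that was not called (adjusted p = 0.145, limma). With LIF present, Blnk read lower with both CpGs. Values were 5.08, 4.37 and 4.45 with CpG-A + LIF and 5.07, 4.86 and 3.92 with CpG-B + LIF, against 6.37, 5.68 and 8.06 with LIF. All CpG arrays lay below all LIF arrays. The readings were -0.52 ± 0.15 with CpG-A (adjusted p = 0.0174, limma) and -0.53 ± 0.15 with CpG-B (adjusted p = 0.0114, limma). LIF replicate 3 was the highest array, and without it they were -0.38 and -0.39 (adjusted p = 0.106 and 0.0723, limma). The CpG-A call was also lost without CpG-A + LIF replicate 2 (-0.48, adjusted p = 0.0639) or 3 (-0.49, adjusted p = 0.0611), and the CpG-B call without CpG-B + LIF replicate 3 (-0.42, adjusted p = 0.0663, limma). A fit of only the arrays compared ended the CpG-A call (adjusted p = 0.0603, limma), and circular medians ended the CpG-B call (-0.39, adjusted p = 0.0895, limma).

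Blk, the kinase, differed from medium with both CpGs. Its placed values were 2.79, 2.79 and 2.93 with CpG-A and 2.93, 1.94 and 3.38 with CpG-B, against 6.86 and 5.62 in medium. As placed, no CpG array overlapped medium. The readings were -1.13 ± 0.21 with CpG-A (or 2.19, adjusted p = 0.00101, limma) and -1.20 ± 0.21 with CpG-B (or 2.12, adjusted p = 5.06e-04, limma). Both lie just past the limit of 1.11, so the direction is undecided. With CpG-A + LIF the values were 2.35, 2.90 and 3.35, against 3.88, 4.41 and 5.86 with LIF. This comparison read lower at -0.71 ± 0.19 (adjusted p = 0.0141, limma), and lost its call without CpG-A + LIF replicate 1 (-0.57, adjusted p = 0.0805) or LIF replicate 3 (-0.54, adjusted p = 0.0839), and with circular medians (-0.60, adjusted p = 0.0502, limma). With CpG-B + LIF the values were 3.81, 3.74 and 3.48, below each LIF array but close to the lowest, and the reading of -0.33 ± 0.19 was not called (adjusted p = 0.232, limma).

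Of the surface genes, Fcer2a differed from medium with both CpGs and to an unequal degree. Its placed values were 13.1, 12.9 and 16.7 with CpG-A and 11.2, 8.79 and 8.79 with CpG-B, against 26.7 and 26.8 in medium. As placed, the groups did not overlap, and CpG-B lay lowest. The reading for CpG-A against medium was -0.92 ± 0.18 (adjusted p = 0.00177, limma), a lower reading. For CpG-B it was -1.49 ± 0.18 (or 1.83, adjusted p = 2.27e-05, limma), with an undecided direction. Values were 11.8, 14.4 and 10.4 with CpG-A + LIF and 8.79, 10.4 and 12.4 with CpG-B + LIF, against 20.0, 15.7 and 15.4 with LIF. Both CpG groups lay below LIF. CpG-B + LIF read lower than LIF at -0.69 ± 0.17 (adjusted p = 0.00425, limma), while CpG-A + LIF had a reading of -0.48 ± 0.17 that missed the threshold (adjusted p = 0.0524, limma). That comparison was called without CpG-A + LIF replicate 2 (-0.61, adjusted p = 0.0269), and at an unmoved reading without CpG-A replicate 3, CpG-B replicate 1, or CpG-B + LIF replicate 1 or 3, where the adjusted p ran between 0.0454 and 0.0473 (limma). The 3 LIF arrays were all below both medium arrays, at -0.66 ± 0.18, the only difference between LIF and medium with an unadjusted p under 0.05 among the 9 genes (adjusted p = 0.140, limma).

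Cd24a had low placed values with each CpG. They were 1.498, 1.57 and 1.05 with CpG-A and 2.57, 1.63 and 2.52 with CpG-B, against 4.49 and 3.91 in medium. The nearest reading with CpG-A was -1.62 ± 0.30 (or 1.70, adjusted p = 9.17e-04, limma), at the edge of what the lost decimal mark allows, so that its sign carries no information. It turned to 1.62 without CpG-A replicate 1, 1.58 without CpG-A replicate 2 and 1.598 without medium replicate 3. With CpG-B it was -0.92 ± 0.30 (adjusted p = 0.0408, limma), a lower reading. That call was lost without medium replicate 1 (-0.82, adjusted p = 0.218), medium replicate 3 (-1.02, adjusted p = 0.112), CpG-B replicate 2 (-0.72, adjusted p = 0.145), or CpG-B + LIF replicate 1 or 2 (-0.92, adjusted p = 0.0507 and 0.0506, limma). It was also lost when each array was unfolded at the widest gap between the 17 arrays (-0.93, adjusted p = 0.213, limma) and with circular medians (-0.74, adjusted p = 0.160, limma). With CpG-A + LIF the values were 1.55, 2.47 and 1.51, and with CpG-B + LIF 2.29, 2.31 and 2.34, against 4.57, 8.10 and 3.34 with LIF. LIF replicate 2 stood apart from the other two. CpG-B + LIF read lower than LIF (-1.06 ± 0.27, adjusted p = 0.00695, limma). Without LIF replicate 3 that reading was -1.39, past the limit for naming a direction, so its direction was then undecided. CpG-A + LIF differed from LIF with an undecided direction (-1.45 ± 0.27 or 1.88, adjusted p = 8.79e-04, limma). The nearest reading of that comparison was 1.54 without LIF replicate 3. Unfolding at the widest gap, which can set arrays of 1 group 10-fold apart, ended both calls, at 0.0012 for CpG-B + LIF (adjusted p = 0.999, limma) and -0.37 for CpG-A + LIF (adjusted p = 0.671, limma).

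Ms4a1 was called in no comparison. Its lowest and highest placed values were 12.1 and 14.2 with CpG-A, 10.9 and 14.9 with CpG-A + LIF, 10.7 and 13.6 with CpG-B, 9.84 and 14.5 with CpG-B + LIF, 11.2 and 16.5 with LIF and 11.8 and 16.3 in medium. All groups overlapped, and all 17 arrays fitted within 0.74 on the log2 scale. Its readings ran between -0.22 ± 0.20 (CpG-B against medium, adjusted p = 0.531, limma) and 0.14 ± 0.18 (CpG-A against CpG-B, adjusted p = 0.705, limma).

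**Figure D3:**
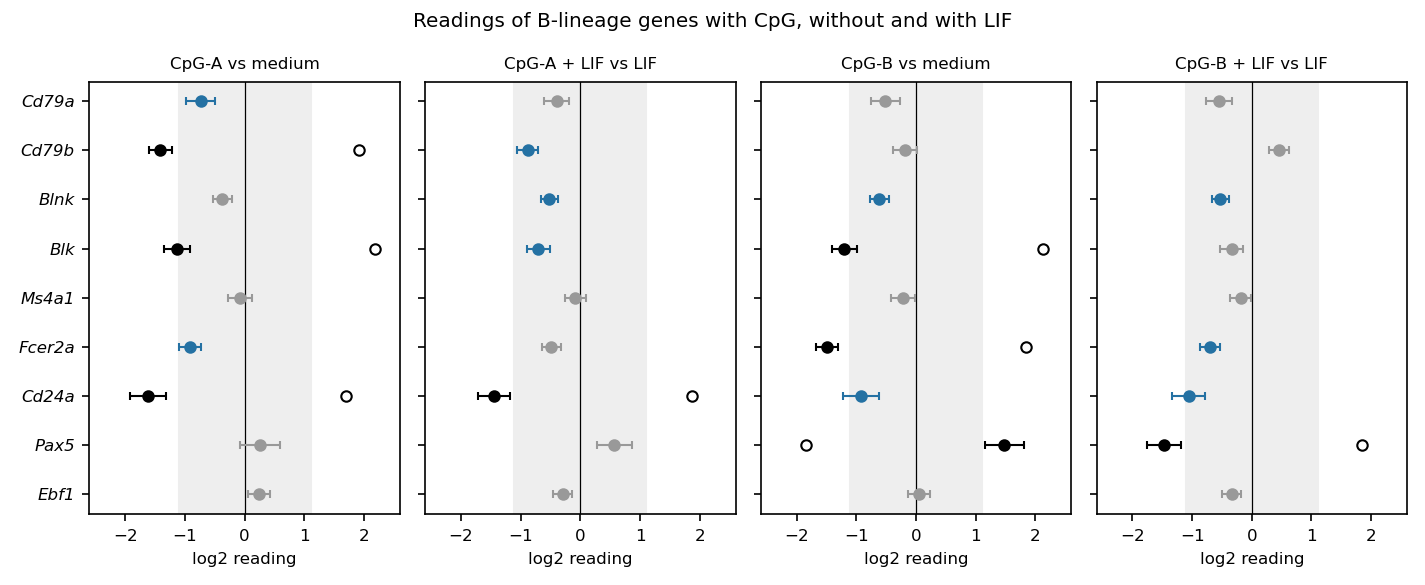
Nearest log2 reading ± SE (filled points) of 9 B-lineage genes for each CpG, against medium and, with LIF present, against LIF. Blue points are called and read lower, black points are called with an undecided direction and have the other possible reading as an open circle, grey points are not called, and the shaded band holds readings up to 1.11 in size. Each point called within the band lies below 0.

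Of the transcription factors, Pax5 stood apart with CpG-B and Ebf1 was called in no comparison. Pax5 had placed values of 10.7, 4.69 and 10.1 with CpG-B, against 3.03 and 3.15 in medium. CpG-B replicate 2 lay far from the other two. The nearest reading was 1.48 ± 0.33 (or -1.84, adjusted p = 0.00326, limma), and it was -1.57 without CpG-B replicate 2 and -1.61 with circular medians, so the direction is undecided. Unfolded at the widest gap the difference was not called (1.37, adjusted p = 0.0823, limma). With CpG-B + LIF the placed values were 18.4, 8.39 and 11.4, against 3.41, 3.73 and 2.79 with LIF. Here the nearest reading was -1.47 ± 0.29 (or 1.85, adjusted p = 9.97e-04, limma), and it was 1.57 without CpG-B + LIF replicate 1. At the widest gap it was 0.77 and not called (adjusted p = 0.271, limma). The nearest readings of Pax5 between groups do not add up: with CpG-B + LIF against CpG-B at 0.47 and LIF against medium at 0.09, they cannot all be the true differences. For the 9 genes, 34 of 36 such closed chains of comparisons added up, and both exceptions were Pax5. The placed values take the reading of 1.85 for CpG-B + LIF against LIF. With CpG-A, Pax5 had 4.65, 2.89 and 3.74, overlapping medium (0.26 ± 0.33, adjusted p = 0.702, limma), and with CpG-A + LIF it had 5.28, 4.12 and 5.30 (0.57 ± 0.29 against LIF, adjusted p = 0.233, limma). As placed, the CpG-A + LIF arrays all lay above the LIF arrays. A fit of only the arrays compared called that difference (0.57, adjusted p = 0.0468, limma).

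Ebf1, which acts before Pax5 in B cell development, fitted within 0.76 on the log2 scale over all 17 arrays. Its lowest and highest placed values were 8.10 and 9.47 with CpG-A, 6.75 and 9.44 with CpG-A + LIF, 7.47 and 7.62 with CpG-B, 5.91 and 9.65 with CpG-B + LIF, 8.57 and 10.00 with LIF and 6.87 and 7.79 in medium. The LIF and CpG-A arrays lay above medium, at readings of 0.36 ± 0.18 and 0.24 ± 0.18 that were not called (adjusted p = 0.528 and 0.459, limma). CpG-B + LIF against LIF had -0.34 ± 0.16 (adjusted p = 0.148, limma), which became -0.52 without CpG-B + LIF replicate 2, the highest array of its group (adjusted p = 0.0222, limma).

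CpG-A and CpG-B were compared directly, without and with LIF. Without LIF, 3 of the 9 genes were called, where 12.7% of all probe sets were called (4.22% higher with CpG-A and 2.31% undecided). Fcer2a read higher with CpG-A than with CpG-B (0.57 ± 0.17, adjusted p = 0.0279, limma), and all CpG-A arrays lay above all CpG-B arrays. Leaving out CpG-A replicate 3 ended that call (0.45, adjusted p = 0.135), as did leaving out CpG-B replicate 2 (0.51, adjusted p = 0.104) or CpG-B replicate 3 (0.51, adjusted p = 0.102). Cd79b (-1.23 ± 0.17 or 2.09, adjusted p = 1.24e-04, limma) and Pax5 (-1.22 ± 0.29 or 2.10, adjusted p = 0.00870, limma) differed with an undecided direction. Leaving out CpG-B replicate 1 ended the Pax5 call (-0.90, adjusted p = 0.0880), and so did leaving out replicate 3 (-0.94, adjusted p = 0.0752). Without CpG-B replicate 3, 1 of the 9 genes was called. Cd24a was not called at -0.70 ± 0.27 (adjusted p = 0.107, limma), though its CpG-A arrays all lay below its CpG-B arrays, and it was called without LIF replicate 2, whose spread enters the fit (-0.70, adjusted p = 0.0388, limma). With LIF present, 2 genes were called, where 16.8% of all probe sets were called (3.24% undecided). They were again Cd79b (-1.34 ± 0.17 or 1.98, adjusted p = 4.40e-05, limma) and Pax5 (-1.28 ± 0.29 or 2.04, adjusted p = 0.00495, limma). Unfolded at the widest gap, Pax5 was called neither with LIF (-0.20, adjusted p = 0.829, limma) nor without it (-1.11, adjusted p = 0.148, limma). Fcer2a had 0.21 ± 0.17 there (adjusted p = 0.449, limma), and whether it differed from the value without LIF was not tested.

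**Figure D4:**
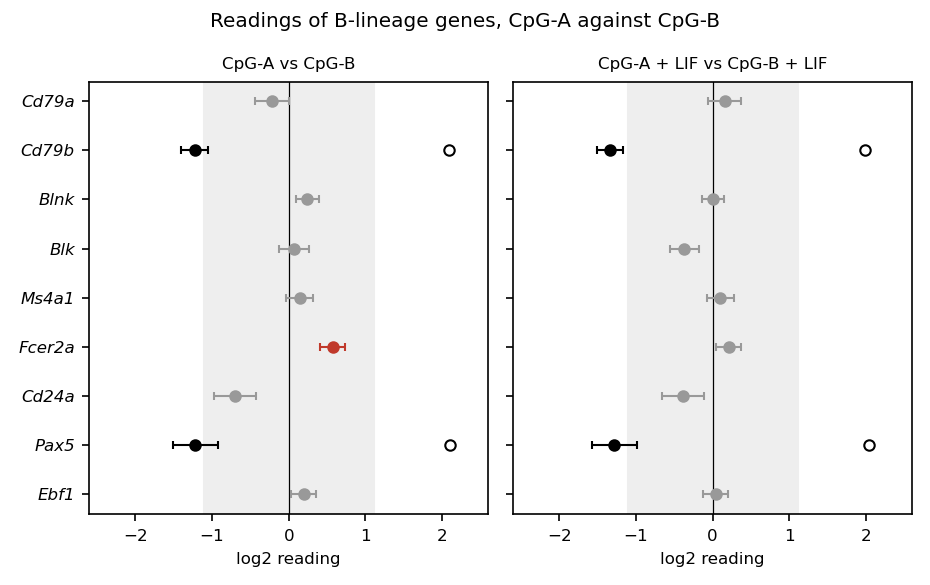
Nearest log2 reading ± SE (filled points) of 9 B-lineage genes for CpG-A against CpG-B, without LIF and with it. The red point (Fcer2a) is called and reads higher, black points (Cd79b and Pax5) are called with an undecided direction and have the other reading as an open circle, grey points are not called, and the shaded band holds readings up to 1.11 in size.

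LIF was followed on all 3 backgrounds, and none of the 9 genes was called on any of them. Against medium, 0.731% of all probe sets were called (156, but 29 without medium replicate 1, 10 without medium replicate 3 and 81 without LIF replicate 1), and the largest reading of the 9 genes was that of Fcer2a given above. For CpG-A + LIF against CpG-A no probe set was called (limma), and none of the 9 genes had an unadjusted p under 0.05. The readings there ran between -0.23 ± 0.17 (Fcer2a) and 0.40 ± 0.29 (Pax5). For CpG-B + LIF against CpG-B 0.0609% of probe sets were called (13, but between 1 and 10 without any 1 array), and 2 of the 9 genes had an unadjusted p under 0.05. These were Blk (0.44 ± 0.19, adjusted p = 0.615, limma), whose CpG-B + LIF arrays all lay above its CpG-B arrays, and Cd79b (0.40 ± 0.17, adjusted p = 0.624, limma). The tests of whether LIF acted differently with CpG than without it called none of the 9 genes (0.0375% of probe sets for CpG-A and 0.108% for CpG-B). At an unadjusted p under 0.05 they gave 1 gene with CpG-A, Ebf1 (-0.54 ± 0.24, adjusted p = 0.684, limma), and 3 with CpG-B, Blk (0.86 ± 0.29, adjusted p = 0.301), Fcer2a (0.79 ± 0.25, adjusted p = 0.262) and Cd79b (0.64 ± 0.26, adjusted p = 0.426). The percentages of probe sets above are at the adjusted threshold. The share of all probe sets at an unadjusted p under 0.05 is not given, so the counts of genes at that threshold cannot be set against it.

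With LIF in both arms, 4 of the 9 genes were called for CpG-A + LIF against LIF, where 17.4% of all probe sets were called, and 4 for CpG-B + LIF against LIF, where 25.1% were called. With CpG-A + LIF, Cd79b, Blnk and Blk read lower and Cd24a had an undecided direction, beside 7.26% of probe sets lower and 4.03% undecided. With CpG-B + LIF, Blnk, Fcer2a and Cd24a read lower and Pax5 had an undecided direction, beside 8.87% lower and 5.94% undecided. The median nearest readings of the 9 genes were -0.48 and -0.53, beside 0.01 and -0.04 over all probe sets. They too take the sign of readings whose direction is undecided. Without LIF replicate 3 the count for CpG-A + LIF was 2. The 9 genes were chosen with results of these arrays known, and the shares are given as a description.

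**Figure D5:**
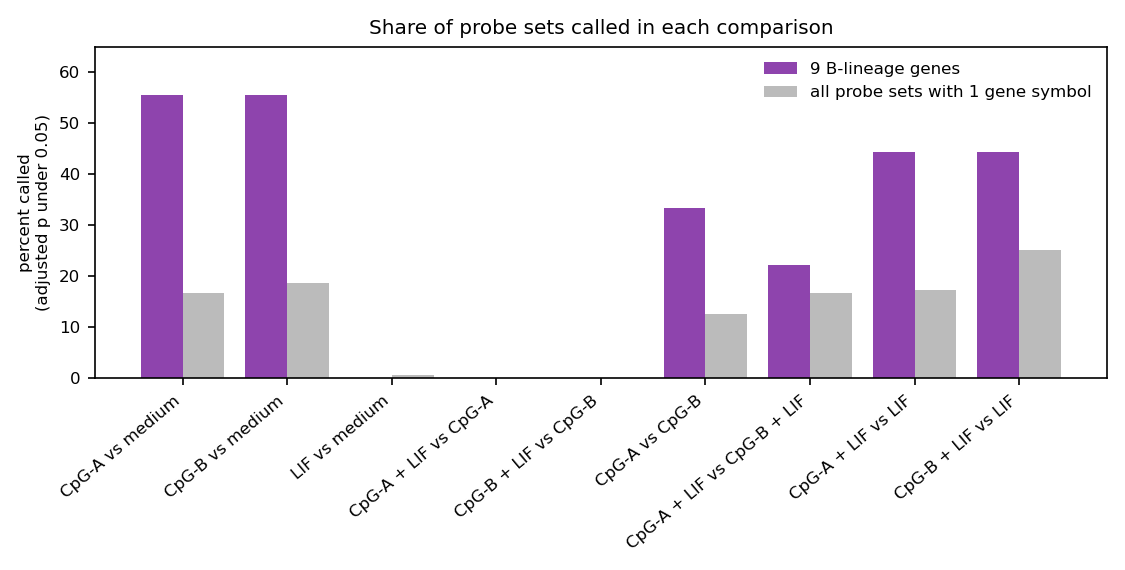
Percent of the 9 B-lineage genes (purple) and of all 21354 probe sets with 1 gene symbol (grey) called at an adjusted p under 0.05 in each of 9 comparisons. The 9 genes have 5 calls for each CpG against medium, beside 16.8% and 18.7% of all probe sets, and none in the comparisons that add LIF.

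The order of the groups differed between the genes. As placed, medium was the highest group for Cd79a, Blnk, Blk, Ms4a1 and Fcer2a, CpG-B + LIF for Cd79b and Pax5, and LIF for Cd24a and Ebf1. Neighbouring groups in that order mostly overlapped. For Cd79b the arrays parted only between LIF and CpG-A + LIF, with a gap of 0.89 between the means on the log2 scale. For Blk they parted between LIF and CpG-B + LIF (0.34) and between CpG-B + LIF and CpG-A + LIF (0.37). Fcer2a parted between medium and LIF (0.66), and Cd24a between medium and CpG-B + LIF (0.86). Up to multiples of 3.32, all 17 arrays fitted within 1.04 on the log2 scale for Blnk, 1.20 for Cd79a and 1.61 for Fcer2a. They fitted within 1.82 for Blk, 1.99 for Cd79b, 2.497 for Cd24a and 2.63 for Pax5. These last 4 genes cannot be placed within the 1.66 that the lost mark leaves unambiguous. As placed, the arrays of Cd24a and Pax5 spread wider than the 2.497 and 2.63 into which they could be fitted. Within groups the SD was largest for Pax5 (0.43) and Cd24a (0.39), beside a median of 0.19 over all probe sets.

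Some of the 9 genes varied together over the 17 arrays. The Pearson r of placed values was 0.70 for Blnk and Fcer2a, 0.70 for Blk and Cd24a, 0.66 for Blk and Fcer2a and 0.65 for Blnk and Blk. Pax5 ran the other way, with -0.69 to Fcer2a and -0.67 to Blnk, as placed. The arrays share groups, so these values repeat the group differences. The probe sets most like each called gene were found by Pearson r over the 17 arrays, on values unfolded at the widest gap. They were Thy1, Sag and Lcn9 (0.83, 0.82 and 0.82) for Cd79a, Pabpc1, Rps7 and Nedd4 (each 0.96) for Cd79b, and R3hdm2, Midn and Trio (0.92, 0.92 and 0.91) for Blnk. For Blk they were Gmfg, Eps15 and Zfp395 (0.91, 0.90 and 0.90), and for Fcer2a Wdr1, Pdgfa and Stox2 (0.93, 0.92 and 0.92). For Cd24a they were Ly96, Iah1 and Gatd3a (0.88, 0.88 and 0.86), and for Pax5 Tnfrsf8, Tyms and Nckap1 (0.91, 0.85 and 0.84). Placed values were not used for these, and for Cd24a and Pax5 the unfolding moved group differences given above.

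Further genes of the pathway were taken from 4 lists. Of the genes of B cell receptor signalling, 22 of 25 were measured. With CpG-A 8 of them were called against medium, 6 lower and 2 higher, and with CpG-B 11, with 7 lower, 2 higher and 2 undecided (16.8% and 18.7% of all probe sets were called). The median nearest readings of that list were -0.21 and -0.39, beside -0.02 and -0.05 over all probe sets. Readings of undecided direction entered with their nearest sign. Btk, the kinase that activates phospholipase C, had the smallest adjusted p with CpG-A and read lower (-0.81 ± 0.13, adjusted p = 2.03e-04, limma). Pik3cd, the catalytic subunit of the PI3K delta isoform, did so with CpG-B, where its direction is undecided (-1.43 ± 0.13 or 1.89, adjusted p = 2.20e-06, limma). With LIF in both arms, 10 of the 22 genes were called with CpG-A (6 lower, 2 higher, 2 undecided) and 13 with CpG-B (7 lower, 2 higher, 4 undecided), beside 17.4% and 25.1% of all probe sets. Fyn, a Src-family kinase, differed between CpG-A and CpG-B without LIF (1.19 ± 0.21 or -2.13, adjusted p = 9.67e-04, limma) and with it (-1.65 ± 0.21 or 1.67, adjusted p = 4.36e-05, limma), with undecided directions.

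Of the B cell surface and co-receptor genes, 14 of 16 were measured and 6 were called against medium with each CpG, 3 lower, 1 higher and 2 undecided with CpG-A and 2 of each kind with CpG-B (16.8% and 18.7% of all probe sets were called). Fcrla, a B cell protein related to Fc receptors, differed with CpG-A (-1.41 ± 0.23 or 1.91, adjusted p = 2.88e-04, limma) and with LIF alone (-1.31 ± 0.23 or 2.02, adjusted p = 0.0117, limma). Cd72, an inhibitory co-receptor, differed with CpG-B (-1.61 ± 0.19 or 1.71, adjusted p = 1.38e-05, limma). Cd37, a tetraspanin, differed between CpG-A and CpG-B (1.65 ± 0.13 or -1.67, adjusted p = 1.27e-06, limma), and all of these directions are undecided. Ly6d, a marker of early B-lineage commitment, read higher for CpG-A + LIF against LIF (0.67 ± 0.11, adjusted p = 2.74e-04, limma). In that comparison 6 of the 14 genes were called, and 8 were called for CpG-B + LIF against LIF, beside 17.4% and 25.1% of all probe sets.

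Of the 12 early B cell and pre-B cell receptor genes, all measured, 4 were called against medium with CpG-A and 2 with CpG-B. With CpG-A 2 read higher, 1 read lower and 1 was undecided, and with CpG-B both read lower. Over all probe sets, 16.8% and 18.7% were called. Sox4, a transcription factor of progenitors, read lower with CpG-B (-1.07 ± 0.19, adjusted p = 4.92e-04, limma) and differed with an undecided direction with CpG-A (-1.22 ± 0.19 or 2.10, adjusted p = 1.99e-04, limma). Il7r, the receptor for the B cell growth factor IL-7, read lower for CpG-A + LIF against LIF (-0.72 ± 0.13, adjusted p = 8.48e-04, limma). In that comparison 3 genes (1 higher and 2 lower) and 17.4% of all probe sets were called. For CpG-B + LIF against LIF 6 genes and 25.1% of all probe sets were called, 5 of them lower and Il7r undecided (-1.31 ± 0.13 or 2.01, adjusted p = 1.86e-06, limma). Dntt, the enzyme that adds bases to antigen receptor joints, differed between CpG-A and CpG-B (1.12 ± 0.22 or -2.20, adjusted p = 0.00177, limma).

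Of the 19 B cell transcription factor genes, all measured, 10 were called with each CpG against medium: 4 lower, 2 higher and 4 undecided with CpG-A, and 3 lower, 1 higher and 6 undecided with CpG-B (16.8% and 18.7% of all probe sets were called). Several of these, such as Tcf4, Spib, Irf8 and Bcl11a, are pDC factors as well. Tcf4 read higher with CpG-A than with CpG-B (1.03 ± 0.11, adjusted p = 1.58e-05, limma), and in that comparison 8 of the list and 12.7% of all probe sets were called, 7 of the 8 higher with CpG-A. With LIF present the difference in Tcf4 was called with an undecided direction (1.20 ± 0.11 or -2.13, adjusted p = 3.45e-06, limma). Against medium, Tcf4 read lower with CpG-A (-0.38 ± 0.13, adjusted p = 0.0468, limma) and had an undecided direction with CpG-B (-1.41 ± 0.13 or 1.91, adjusted p = 2.20e-06, limma). Id2, an inhibitor of E-proteins, differed with CpG-A (1.51 ± 0.18 or -1.81, adjusted p = 2.20e-05, limma) and with LIF alone (1.24 ± 0.18 or -2.08, adjusted p = 0.00324, limma). Ikzf1 (Ikaros) read lower for CpG-A + LIF against LIF (-0.95 ± 0.15, adjusted p = 1.38e-04, limma). Adding LIF to either CpG gave no call in any of the 4 lists (limma). Over all probe sets, none was called when LIF was added to CpG-A and 0.0609% when it was added to CpG-B.

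The genes of the sort gate changed too. Siglech, which encodes Siglec-H, read lower with CpG-A (-0.58 ± 0.15, adjusted p = 0.00955, limma) and differed with an undecided direction with CpG-B (1.40 ± 0.15 or -1.92, adjusted p = 5.55e-06, limma). Ptprc, which encodes CD45 and its B220 form, had 0.04 ± 0.12 with CpG-A (adjusted p = 0.873, limma) and read lower with CpG-B (-0.58 ± 0.12, adjusted p = 0.00142, limma). Itgax, which encodes CD11c, differed with CpG-A (1.51 ± 0.24 or -1.81, adjusted p = 2.23e-04, limma) and read lower with CpG-B (-0.77 ± 0.24, adjusted p = 0.0290, limma). Beside 16.8% of all probe sets called with CpG-A and 18.7% with CpG-B, markers of several cell types were called against medium. Of 6 measured B cell markers, which include 4 of the 9 genes, 2 were called with CpG-A (both lower) and 2 with CpG-B (both undecided). Of the 9 measured pDC markers, 5 were called with each CpG, 2 of them lower and 3 undecided. Of the T cell markers 1 of 4 was called with CpG-A and none with CpG-B, of the NK cell markers none and 1 of 4, of the monocyte and macrophage markers 3 and 2 of 4, and of the granulocyte markers 1 and 2 of 5, all undecided. Of the erythroid markers only Alas2, a haem synthesis enzyme, was measured, and it was called with CpG-B (1.32 ± 0.21 or -1.998, adjusted p = 2.03e-04, limma). Summed marker levels cannot be computed without the decimal marks, and so neither the pDC label nor the presence of B cells among the sorted cells can be read from these values. The part of other cell types in the differences above was not tested.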

How the data were processed

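Total RNA of sorted pDC was labelled with biotin and hybridised to 17 Affymetrix arrays, per the labels. The authors deposited linear intensities, made with RMA per the submitters' processing notes (version not given in the sources used here), whose decimal mark is lost in all but 1 of 419560 cells. Of these cells, 90.0% have 10 digits. Each array's log2 position within a period of 3.32 was used, with circular group means and shortest deviations, limma 3.58.1 in R 4.3.3 (1 coefficient per group, 11 residual degrees of freedom), and adjustment over 21354 probe sets. Scripts were tested on simulated data. Interactions were differences of 2 nearest readings, not folded again. Named were the 9 genes, the list gene with the smallest adjusted p per list and comparison (not all are repeated in the text), the genes of the gate, and the 3 most alike probe sets per called gene. The 9 genes and all lists were chosen with earlier results of these data known. By correlated deviations (r over 0.1 in all 3 pairs), replicate numbers paired CpG-B + LIF with CpG-B, and no other comparison. The fit has no block, as planned, and the block gave that comparison no call among the 9 genes. The number of arrays limits the precision. Promoter windows came from RefSeq, by symbol.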

Additional observations from a re-analysis of the deposited data

How the results depend on the processing

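Each result was recomputed under 26 alternatives: 17 that leave out 1 array each, 8 others that were planned (1 probe set per gene, all probe sets of the table, the replicate number as a block, a fit of only the arrays compared, robust moderation, re-centred arrays, unfolding each array at the widest gap, circular medians), and placing whole groups at the widest gap, chosen after seeing the data. Deviations of same-numbered arrays had r between -0.08 and 0.24 over 40 pairs and over 0.1 in 8 of them, among them all 3 pairs of CpG-B + LIF with CpG-B (0.11, 0.24 and 0.14) and all 3 of CpG-A with LIF (0.15, 0.10 and 0.10), which were not compared. For CpG-B + LIF against CpG-B the block gave 16 probe sets in place of 13 and none of the 9 genes. With the replicate block the nearest reading of Cd24a for CpG-A against medium turned to 1.596, the Cd79a call there was lost (-0.77, adjusted p = 0.0535, limma), the number of probe sets called for the interaction with LIF became 16 for CpG-A and 52 for CpG-B, and CpG-A + LIF against CpG-A gave 1. The Cd24a difference for CpG-B + LIF against LIF was 0.0012 at the widest gap. Readings near the edge of the period turned for Pax5 in CpG-B + LIF against LIF (0.77 at the widest gap, 1.85 with groups placed) and for Pax5 in CpG-B against medium (-1.61 with circular medians). At the widest gap between arrays, 3, 1 and 2 of the 9 genes were called for CpG-B against medium, CpG-A + LIF against CpG-B + LIF and CpG-B + LIF against LIF. Counts of probe sets called in the comparisons with few calls moved too. CpG-A + LIF against CpG-A gave 1 with 1 probe set per gene, 8 at the widest gap and 16 with groups placed. CpG-B + LIF against CpG-B (13 in the report's fit) gave 3 with all probe sets, 0 in the fit of only the arrays compared, 5 at the widest gap, 21 with groups placed and 5 with circular medians. LIF against medium (156) gave 11 in the fit of only the arrays compared and 85 with circular medians. The interaction with CpG-A (8) gave 5, 0, 40, 50 and 2 with all probe sets, only the arrays compared, the widest gap, groups placed and circular medians, and that with CpG-B (23) gave 15, 51, 72 and 14 with the last 4 of these. Leaving out 1 array, the genes called of the 9 ran between 4 and 5 for CpG-A against medium, 3 and 6 for CpG-B against medium, 1 and 4 for CpG-A against CpG-B, 2 and 5 for CpG-A + LIF against LIF and 3 and 6 for CpG-B + LIF against LIF, and were 2 throughout for CpG-A + LIF against CpG-B + LIF. The probe sets called ran between 2305 and 3714 for CpG-A against medium, 2595 and 4154 for CpG-B against medium, 10 and 157 for LIF against medium, 0 and 3 for CpG-A + LIF against CpG-A, 1 and 10 for CpG-B + LIF against CpG-B, 1 and 32 for the interaction with CpG-A and 3 and 34 for that with CpG-B. The readings that turned then ran between -1.62 and 1.62 (Cd24a, CpG-A against medium), -1.66 and 1.54 (Cd24a, CpG-A + LIF against LIF), -1.57 and 1.51 (Pax5, CpG-B against medium) and -1.59 and 1.57 (Pax5, CpG-B + LIF against LIF). Of the recomputed readings of the 9 genes, 2441 kept their sign and side of the threshold, 38 lost their call and 17 gained one. A further 11 turned in sign (the 0.0012 above counted among them), and 67 moved by more than the spread between replicates. The counts of calls are not part of these tallies. A reading that crossed the limit for naming a direction could still be counted as kept. An example is Cd24a for CpG-B + LIF against LIF, at -1.39 without LIF replicate 3. The cause of these changes was not tested. Medium had 2 arrays, so a fit without either rests on 1 medium array, assumed to vary like the other groups. A true change over 3.16-fold shows as a smaller one, often with the opposite sign, and signal over background cannot be seen.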
